A study of Mus musculus with 12 samples.

Results

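The genes of glycolysis, glucose uptake and lactate export were followed in NIH3T3 mouse embryonic fibroblasts with and without oxygen. The members were chosen by name and comprised glucose transporters, the enzymes from hexokinase to lactate dehydrogenase with their main isoforms, the enzymes that set fructose 2,6-bisphosphate, the lactate transporters, and the side enzymes Galk1 and Minpp1. They made up 32 gene names and 33 of the 54446 rows of the count table, since 2 rows carry the name Aldoa. Of these rows, 32 passed the filter on low counts and were tested, and Aldoc, the brain aldolase, with 1 to 25 counts per sample, did not.

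RNA was sequenced from 12 samples in 4 groups of 3, which were NIH3T3 wild type cells (WT) in normoxia, WT in hypoxia, dN-VEGF cells in normoxia and dN-VEGF cells in hypoxia. Hypoxia was 16 h below 0.2% oxygen. The dN-VEGF cells are NIH3T3 cells from which CRISPR-Cas9 had deleted the coding part of Vegfa for N-VEGF, the amino-terminal piece of the long VEGF-A form, with the donor cassettes removed afterwards by VCre and cell sorting. The methods do not say how many clones gave the RNA, so the deletion and any other difference between the lines cannot be told apart. The methods speak of repeated experiments in triplicate without saying whether the 3 sequenced samples of a group were separate cultures, and p-values therefore measure the spread between these samples, which may be technical.

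Glycolysis splits glucose into pyruvate and yields ATP without oxygen. Glucose enters through facilitative transporters of the Slc2a family and is trapped by hexokinases, phosphofructokinase commits it to the pathway, and lactate dehydrogenase regenerates NAD+ from pyruvate so that the lower steps can run on. Lactate then leaves the cell with a proton through monocarboxylate transporters. In most mammalian cells low oxygen raises transcription of many of these genes through hypoxia-inducible factors, which bind DNA at elements with the core ACGTG or GCGTG.

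This core was looked for in RefSeq promoters of 300 bases, from 250 before to 50 after a gene's start (GRCm38.p6). Both strands were read, so that CACGT and CACGC count as matches, and matches that overlap were each counted. Of the 32 genes, 30 had an entry, and Slc2a3 and Slc2a4 had none. The following stretches upstream of the start are shown because they let the promoters of members that rose strongly in hypoxia be read beside those of members that did not, with matches in capitals and each written 5′ to 3′ on the strand of its gene.
Slc2a1 (chr4:119108672-119108725, + strand): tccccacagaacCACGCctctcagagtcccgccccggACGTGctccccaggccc
Hk2 (chr6:82774490-82774518, - strand): aatgagcacatcCACGTcactgtccgggg
Pfkp (chr13:6648823-6648851, - strand): ggccccgcccttGCGTGagtcccgcccat
Gapdh (chr6:125165801-125165839, - strand): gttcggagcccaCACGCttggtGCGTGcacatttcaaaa
Pgk1 (chrX:106186938-106186985, + strand): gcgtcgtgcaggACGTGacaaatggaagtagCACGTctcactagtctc
Ldha (chr7:46845744-46845786, + strand): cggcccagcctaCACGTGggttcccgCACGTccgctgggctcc
Pfkm (chr15:98092441-98092470, + strand): aattaagtatgcCACGTGaagtaagtaatt
Ldhb (chr6:142508067-142508095, - strand): gcgggggagagcGCGTGcacactccagcc
Slc16a1 (chr3:104638452-104638481, + strand): gcggcgccgggtCACGTGgcgggaaggggg
The first 6 of these genes rose at least 2-fold in hypoxia in both lines, whereas Pfkm, Ldhb and Slc16a1 did not. The Ldha stretch is from an entry whose bases after the start lay in no GENCODE M21 transcript of the gene. The other Ldha entry, which did lie in one, held 1 upstream match, CACGC at -59. A match was present in 13 of the 16 genes with an entry that rose at least 2-fold in both lines (81.25%) and in 11 of the 13 other tested genes (84.62%), so that its presence did not separate them. Gpi1, Tpi1 and Eno2 had no match in this window, nor did Bpgm and Pgam2. Over all genes with an entry the share was 46.73%, or 12628 of 27025. The members' promoters also held more CG dinucleotides, with a median of 18.0 per promoter against 7.0 over all promoters. A match is a run of letters and not a measured binding site.

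Reads on genes numbered 30519052 to 43056690 per sample. Levels are given as counts per 1000000 reads on genes (CPM), scaled between libraries by TMM, a method that lines up the bulk of the genes. Replicate 2 of WT normoxia stood apart, since its log2 CPM correlated at 0.956 and 0.957 with the other replicates of its group, which correlated at 0.996 with each other, while every other within-group correlation was 0.986 or more. Its levels were 2.24-fold those of the other replicates for Slc2a1, 2.98-fold for Ldha and 2.70-fold for Pgam1, and 3.50-fold lower for Eno2, and for Slc2a1, Hk2 and Ldha it lay within or above the range of the dN-VEGF normoxia samples. Of other members, Eno3 at 24.0 CPM lay between the other WT normoxia samples and above the dN-VEGF samples (at most 19.9). Pfkfb4 at 6.43 CPM lay below those WT samples and above the dN-VEGF samples (at most 4.38), and Galk1 at 167.8 CPM lay above all other normoxia samples. Whether replicate 2 differs as a culture or carries the label of another sample was not tested, and every WT normoxia mean holds it. The WT hypoxia changes without it are given where they moved by over 1.5 times, and the comparisons between lines are given with and without it. Of the fibroblast markers, the summed CPM of 8 genes ranged from 16982 to 24080 in WT normoxia, 20301 to 21447 in dN-VEGF normoxia, 27022 to 29253 in WT hypoxia and 40688 to 42785 in dN-VEGF hypoxia. Vim was higher in hypoxia, with means of 6154 and 14167 CPM in WT and 5998 and 17279 in dN-VEGF cells. Col1a1 (1013 and 971, 969 and 2900.2), Col1a2 (3534 and 3096, 3254 and 5335) and Fn1 (9442 and 9082, 9631 and 15549) were higher in hypoxia in dN-VEGF cells and not in WT, and S100a4 stayed between 40.9 and 77.7 in all samples, whereas Pdgfra (667 and 134, 424 and 196), Pdgfrb (106 and 27.7, 81.8 and 30.05) and Thy1 (303 and 215, 441 and 198) were lower. Epithelial Epcam, erythroid Hbb-bs and muscle Myod1 were at 0 counts. The summed markers of skeletal muscle were at most 3.27 CPM in normoxia and between 10.7 and 31.6 in hypoxia, nearly all of it Acta1, with Ckm and Myh1 at most 0.0232 and 1.18 CPM, those of endothelium reached 25.1 in dN-VEGF hypoxia and those of neural cells 45.9 in WT normoxia, while the epithelial sum was at most 10.03 and the blood sum at most 6.67, and their part in the results was not tested. Whole-gene Vegfa counts were 86.1, 39.4 and 82.6 CPM in WT normoxia, replicate 2 lying near the dN-VEGF level, and 34.2 to 37.3 in dN-VEGF normoxia, and 272 to 291 against 419 to 437 in hypoxia. A count over the whole gene does not check the deletion, since it holds the undeleted part too.

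The first comparison asked how the pathway responded to hypoxia in each line. The members' rows together took 1.44% ± 0.325 (SD, n = 3) of all counts in WT normoxia and 5.54% ± 0.26 in WT hypoxia, and 1.69% ± 0.1 and 5.70% ± 0.154 in dN-VEGF cells. At least 1 isoform for nearly every step rose, with the bisphosphoglycerate branch and the isoforms Eno3 and Ldhb falling. In WT cells 19 of 32 tested members rose and 4 fell at an adjusted p below 0.05 (edgeR quasi-likelihood test, adjusted over all genes), where 18.2% of all tested genes rose and 18.3% fell. In dN-VEGF cells 21 rose and 5 fell, where 26.9% and 26.4% of all genes did. With a change of 2-fold or more asked for as well, 18 rose and 1 fell in WT (9.17% and 6.53% of all genes), and 20 rose and 3 fell in dN-VEGF cells (14.6% and 12.7%). The median member changed by 1.64 on the log2 scale in WT and 1.98 in dN-VEGF cells, against -0.07 and -0.01 over all tested genes. The hypoxia and normoxia samples did not overlap for 24 members in WT, where 45% of all genes did not, and for 26 in dN-VEGF cells, where 70.6% did not. In a bulk sample, a shift in the share of cells that express a gene and a shift in its RNA per cell cannot be told apart.

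**Figure D1:**
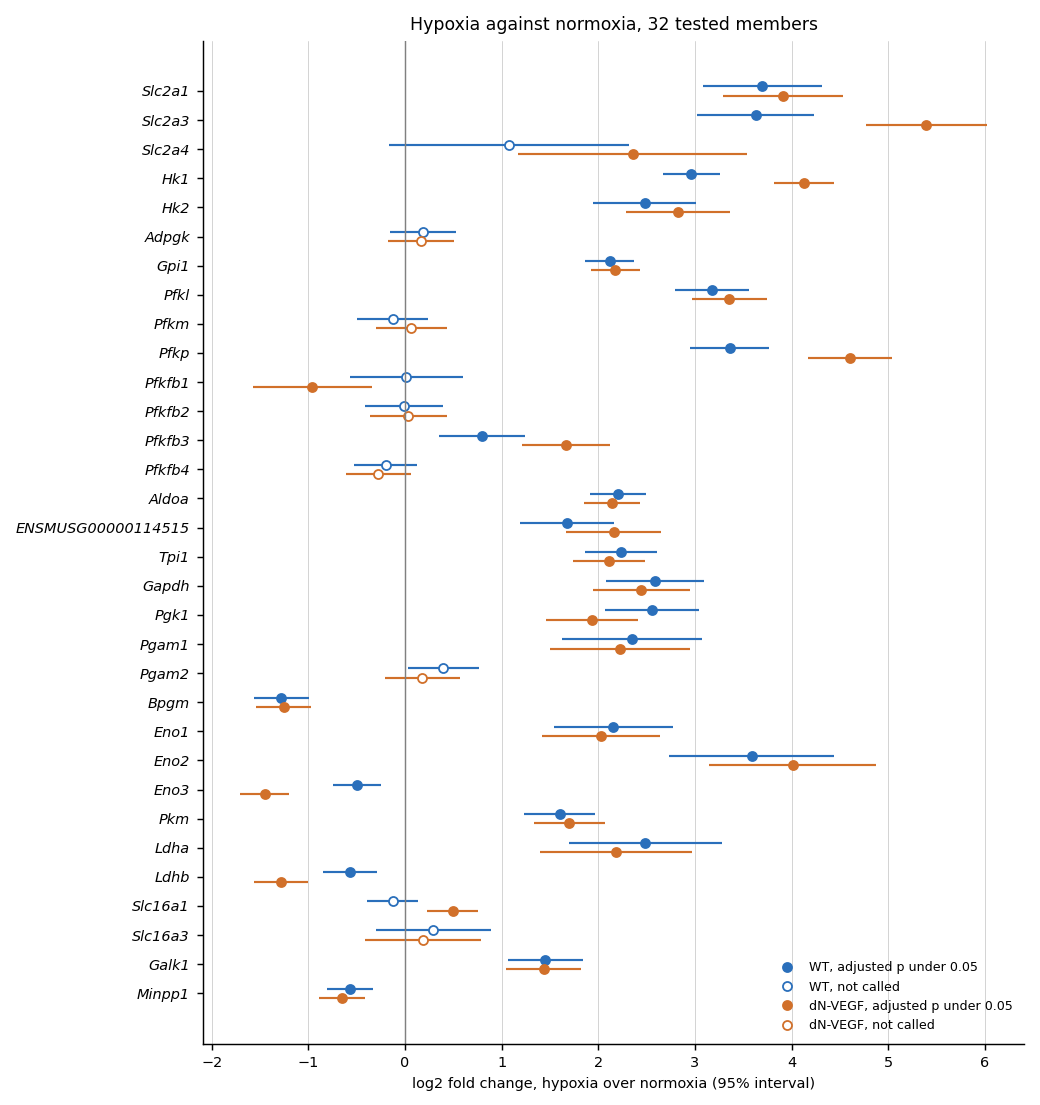
Log2 fold change of hypoxia over normoxia (x axis) for the 32 tested members (y axis), in WT (blue) and dN-VEGF cells (orange), with 95% intervals as lines and filled points where the edgeR adjusted p was under 0.05. Slc2a3, Hk1 and Pfkp lie farther to the right in dN-VEGF cells, and Eno3 farther to the left, while Pfkm, Adpgk, Pfkfb2 and Slc16a3 lie near 0 in both lines.

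Among the glucose transporters the most abundant transcript was that of Slc2a1, the ubiquitous GLUT1. Its level was 112, 247 and 108 CPM in WT normoxia and 1983, 2126 and 1951 in WT hypoxia, and 192, 194 and 188 against 2969, 2845 and 2816 in dN-VEGF cells. The samples of hypoxia were far above those of normoxia in both lines, and in WT normoxia replicate 2 was the high one. Slc2a1 rose by 3.70 ± 0.28 (log2, SE; 12.96-fold) in WT and 3.91 ± 0.28 (15.03-fold) in dN-VEGF cells. Slc2a3, the high-affinity GLUT3 of neurons, was much scarcer, at 0.205, 0.279 and 0.327 CPM in WT normoxia, 3.71, 3.87 and 2.65 in WT hypoxia, 0.301, 0.142 and 0.294 in dN-VEGF normoxia and 11.3, 9.13 and 11.1 in dN-VEGF hypoxia. It rose by 3.63 ± 0.27 in WT (12.4-fold) and 5.39 ± 0.29 in dN-VEGF cells (42.1-fold), from 6 to 17 counts per sample in normoxia. Slc2a4, the insulin-responsive GLUT4, stayed below 2 CPM in all samples and passed the test in dN-VEGF cells (2.36 ± 0.54, edgeR adjusted p = 0.0036), its change in WT being 1.08 ± 0.56 (0.16) and the difference between the lines 1.28 ± 0.78 (0.38). Both rested on single WT normoxia samples, since without replicate 1 the WT change was 1.87 and called (0.028), and with single samples left out the difference ranged from 0.48 to 1.74, called without replicate 2 (0.014). Per kilobase of exon, Slc2a1 held at least 99.4% of the 3 transporters' level in every sample.

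Hexokinase phosphorylates glucose and so keeps it in the cell. Hk1, the isoform found in most tissues, was at 140, 100.7 and 143 CPM in WT normoxia and 950, 1068 and 973 in WT hypoxia. In dN-VEGF cells it was at 133, 121 and 129 in normoxia and 2202, 2312 and 2185 in hypoxia. The lines overlapped in normoxia, and in hypoxia every dN-VEGF sample was above every WT sample. Hk1 rose by 2.96 ± 0.13 in WT (7.80-fold) and 4.13 ± 0.14 in dN-VEGF cells (17.5-fold). Hk2, the isoform of insulin-sensitive tissues and many tumors, was at 43.4, 89.2 and 42.4 CPM in WT normoxia, 330, 314 and 331 in WT hypoxia, 82.7, 86.5 and 82.4 in dN-VEGF normoxia and 605, 578 and 603 in dN-VEGF hypoxia. WT normoxia replicate 2 lay at the dN-VEGF level and the other replicates at about the same lower level. Hk2 rose by 2.48 ± 0.24 and 2.83 ± 0.25 in the respective lines. Adpgk, which uses ADP in place of ATP as the phosphate donor, stayed between 43.9 and 63.2 CPM and did not pass the test in either line (0.19 ± 0.15 and 0.17 ± 0.15, adjusted p = 0.37 and 0.38). Without WT normoxia replicate 2 it was called higher in WT, with a change of at most 0.38 over the alternatives. Gpi1, which turns glucose 6-phosphate into fructose 6-phosphate, went from 753 to 1020 CPM over the WT normoxia samples to 3626 to 4020 in hypoxia, and from 1062 to 1163 to between 4900 and 5214 in dN-VEGF cells, a rise of 2.12 ± 0.12 and 2.17 ± 0.12.

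The phosphofructokinase isoforms responded unequally. Pfkl, the liver type, was at 155, 239 and 146 CPM in WT normoxia and 1561, 1773 and 1551 in WT hypoxia, and at 247, 228 and 241 against 2404, 2560 and 2356 in dN-VEGF cells. Pfkp, the platelet type, was at 37.7, 29.8 and 36.7 CPM in WT normoxia and 358, 350 and 362 in WT hypoxia, and at 31.1, 19.3 and 32.8 against 655, 699 and 669 in dN-VEGF cells. Both were several times higher in every hypoxia sample than in any normoxia sample. Pfkl rose by 3.18 ± 0.17 and 3.36 ± 0.18, and Pfkp by 3.36 ± 0.19 (10.3-fold) and 4.604 ± 0.20 (24.3-fold). Pfkm, the muscle type, was at 172, 112 and 162 CPM in WT normoxia, 131, 142 and 135 in WT hypoxia, 157, 112 and 158 in dN-VEGF normoxia and 143, 154 and 149 in dN-VEGF hypoxia. Its groups overlapped, and its change had 95% intervals of -0.50 to 0.24 in WT and -0.30 to 0.43 in dN-VEGF cells.

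The bifunctional PFKFB enzymes make and break fructose 2,6-bisphosphate, the activator of phosphofructokinase, and all were low. Pfkfb3, the isoform with the highest kinase activity, was at 8.92, 9.96 and 7.30 CPM in WT normoxia and 15.3, 14.9 and 15.3 in hypoxia, and at 5.38, 9.21 and 5.22 against 18.9, 22.2 and 21.6 in dN-VEGF cells. It rose by 0.79 ± 0.20 in WT (adjusted p = 0.01) and 1.66 ± 0.21 in dN-VEGF cells, and the difference of 0.87 ± 0.29 did not pass (0.12). Pfkfb4, often listed with Pfkfb3 as a hypoxia-inducible isoform, did not pass in either line (-0.20 ± 0.15 and -0.28 ± 0.15, adjusted p = 0.31 and 0.15). Pfkfb1, the liver isoform, fell in dN-VEGF cells from 2.38 to 3.48 CPM to between 1.41 and 1.69 (-0.96 ± 0.28, adjusted p = 0.013, and 0.051 without dN-VEGF hypoxia replicate 1), and in WT its change was 0.01 ± 0.27. Without WT normoxia replicate 2 it was called higher in WT, with a change of at most 0.44 over the alternatives. The difference between the lines of -0.97 ± 0.39 did not pass (edgeR adjusted p = 0.18). Pfkfb2, the heart isoform, had changes of -0.01 ± 0.18 and 0.03 ± 0.18.

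The shared lower steps, each served mainly by 1 abundant gene, rose together. Aldolase Aldoa, which splits fructose bisphosphate, was at 970, 1290 and 969 CPM in WT normoxia and 4679, 5523 and 4652 in hypoxia, and at 1393, 1211 and 1388 against 5879, 6092 and 5687 in dN-VEGF cells. It rose by 2.202 ± 0.13 and 2.14 ± 0.13. The second row named Aldoa (ENSMUSG00000114515), annotated next to the main gene, held only 1.16 to 7.77 CPM and rose by 1.68 ± 0.22 and 2.16 ± 0.22. Triose phosphate isomerase Tpi1 was at 598 to 891 CPM in WT normoxia and 3104 to 3589 in hypoxia and rose by 2.24 ± 0.17, against 785 to 1034 and 3968 to 4329 with a rise of 2.11 ± 0.17 in dN-VEGF cells.

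Gapdh, which oxidizes glyceraldehyde 3-phosphate and is often used as a reference gene for RT-PCR, was at 1429, 2597 and 1270 CPM in WT normoxia and 10537, 11129 and 10132 in hypoxia. In dN-VEGF cells it was at 2445, 2007 and 2294 in normoxia and 12121, 12698 and 11873 in hypoxia. No sample of hypoxia came near those of normoxia, and the rise was 2.59 ± 0.23 (6.003-fold) in WT and 2.44 ± 0.23 (5.44-fold) in dN-VEGF cells. Pgk1, which yields the first ATP of the pathway, was at 396, 761 and 389 CPM in WT normoxia and 3123, 3005 and 2968 in hypoxia, and at 630, 655 and 631 against 2335, 2569 and 2420 in dN-VEGF cells. It was the only member of the abundant lower steps whose hypoxia samples were all lower in dN-VEGF cells than in WT. Its rise was 2.56 ± 0.22 and 1.93 ± 0.22, and the difference of -0.62 ± 0.30 did not pass (adjusted p = 0.26), but without WT normoxia replicate 2 it was called.

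Phosphoglycerate mutase Pgam1 was at 360, 957 and 350 CPM in WT normoxia and 2766, 2957 and 2741 in hypoxia, and at 640, 790 and 617 against 3140, 3290 and 3157 in dN-VEGF cells, a rise of 2.35 ± 0.33 and 2.23 ± 0.33. Without WT normoxia replicate 2, the high one, the rise in WT was 2.998. The muscle form Pgam2 remained below 1.5 CPM and did not pass. Bpgm, which diverts the pathway intermediate into 2,3-bisphosphoglycerate, moved the other way, from 15.5, 19.5 and 14.9 CPM to 7.08, 6.54 and 6.90 in WT and from 13.4, 15.1 and 14.8 to 5.39, 6.33 and 6.41 in dN-VEGF cells. It fell by 1.28 on the log2 scale (SE 0.13) in WT and by 1.26 (SE 0.13) in dN-VEGF cells. Minpp1, a phosphatase of inositol phosphates that also acts on 2,3-bisphosphoglycerate, fell by 0.57 and by 0.65 (SE 0.11 each), though 23.82% of its exon length is shared with another annotated gene.

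Enolase isoforms went in opposite directions. Eno1, the general form, rose from 804, 1797 and 745 CPM to 4815, 5458 and 4642 in WT and from 1604, 1452 and 1482 to 6161, 6489 and 5832 in dN-VEGF cells (2.16 ± 0.28 and 2.03 ± 0.28). Eno2, the neuronal form, rose more, from 42.1, 11.95 and 41.5 CPM to 379, 403 and 367 in WT (3.59 ± 0.39, 12.02-fold) and from 30.5, 21.3 and 29.7 to 450, 433 and 431 in dN-VEGF cells (4.01 ± 0.39, 16.1-fold). WT normoxia replicate 2 was the highest of its group for Eno1 and the lowest for Eno2. Eno3, the muscle form, was at 24.5, 24.0 and 23.5 CPM in WT normoxia and 17.2, 18.3 and 15.5 in hypoxia, and at 19.9, 15.4 and 17.6 against 6.17, 6.69 and 6.44 in dN-VEGF cells. It fell by 0.50 (SE 0.11, adjusted p = 0.0049) in WT and by 1.45 (SE 0.12) in dN-VEGF cells, and here WT normoxia replicate 2 did not differ from the others.

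Pkm, the pyruvate kinase gene, was the most abundant member in normoxia, at 3725, 5720 and 3368 CPM in WT and 4331, 4193 and 4188 in dN-VEGF cells. In hypoxia it was at 12671, 13742 and 12503 and at 13668, 14274 and 13402, a rise of 1.60 ± 0.17 and 1.70 ± 0.17, the smallest among the abundant enzymes of the main line. Counts per gene do not separate its M1 and M2 splice forms. Per kilobase of exon, Gapdh was at 2959 ± 102 CPM (SD, n = 3) and Pkm at 2756 ± 89.4 in dN-VEGF hypoxia, and at 2565 ± 121 and 2594 ± 134 in WT hypoxia, where Aldoa followed at 1701 ± 170. The order of Gapdh and Pkm in WT depended on the length used, since per kilobase of principal transcript they were at 7464 ± 353 and 5334 ± 276.

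Ldha, the subunit that favors lactate, was at 470, 1376 and 454 CPM in WT normoxia and 4168, 4629 and 4100 in hypoxia, and at 1175, 1389 and 1184 against 5465, 5972 and 5580 in dN-VEGF cells. WT normoxia replicate 2 was at the dN-VEGF level, 2.98-fold above the mean of the other replicates, and Ldha rose by 2.49 ± 0.36 in WT (3.22 without that sample) and 2.18 ± 0.36 in dN-VEGF cells. Ldhb, the heart-type subunit, fell from 203, 162 and 165 CPM to 119, 120 and 117 in WT and from 241, 182 and 245 to 87.2, 97.1 and 89.9 in dN-VEGF cells. The falls were of 0.57 (SE 0.13, adjusted p = 0.0046) and of 1.28 (SE 0.13), and the difference of -0.71 ± 0.18 just missed the threshold (0.055). The call in WT was lost in the fit on the WT samples alone with replicate number as a block (edgeR adjusted p = 0.062).

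Lactate export showed no such rise in WT cells. Slc16a1, the transporter MCT1, was at 97.6, 128 and 105 CPM in WT normoxia, 107, 91.2 and 104 in WT hypoxia, 124, 104 and 121 in dN-VEGF normoxia and 167, 157 and 166 in dN-VEGF hypoxia. Only the dN-VEGF hypoxia samples lay apart from the others. The change was -0.13 ± 0.12 in WT (adjusted p = 0.43) and 0.49 ± 0.12 in dN-VEGF cells (0.0049), which shrank to 0.09 (0.52) when libraries were scaled by total counts alone. The difference between the lines of 0.62 ± 0.17 did not pass (edgeR adjusted p = 0.069) and was called in 4 of 19 alternatives. Slc16a3, the transporter MCT4 that many hypoxic cells induce, held only 0.753 to 1.57 CPM and did not pass in either line (0.29 ± 0.27 and 0.19 ± 0.27, adjusted p = 0.43 and 0.59). Galk1, the kinase that brings galactose toward glycolysis, rose from 109, 168 and 103 CPM to 317, 404 and 318 in WT and from 96.4, 92.4 and 85.7 to 257, 252 and 232 in dN-VEGF cells (1.45 ± 0.18 and 1.43 ± 0.18).

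**Figure D2:**
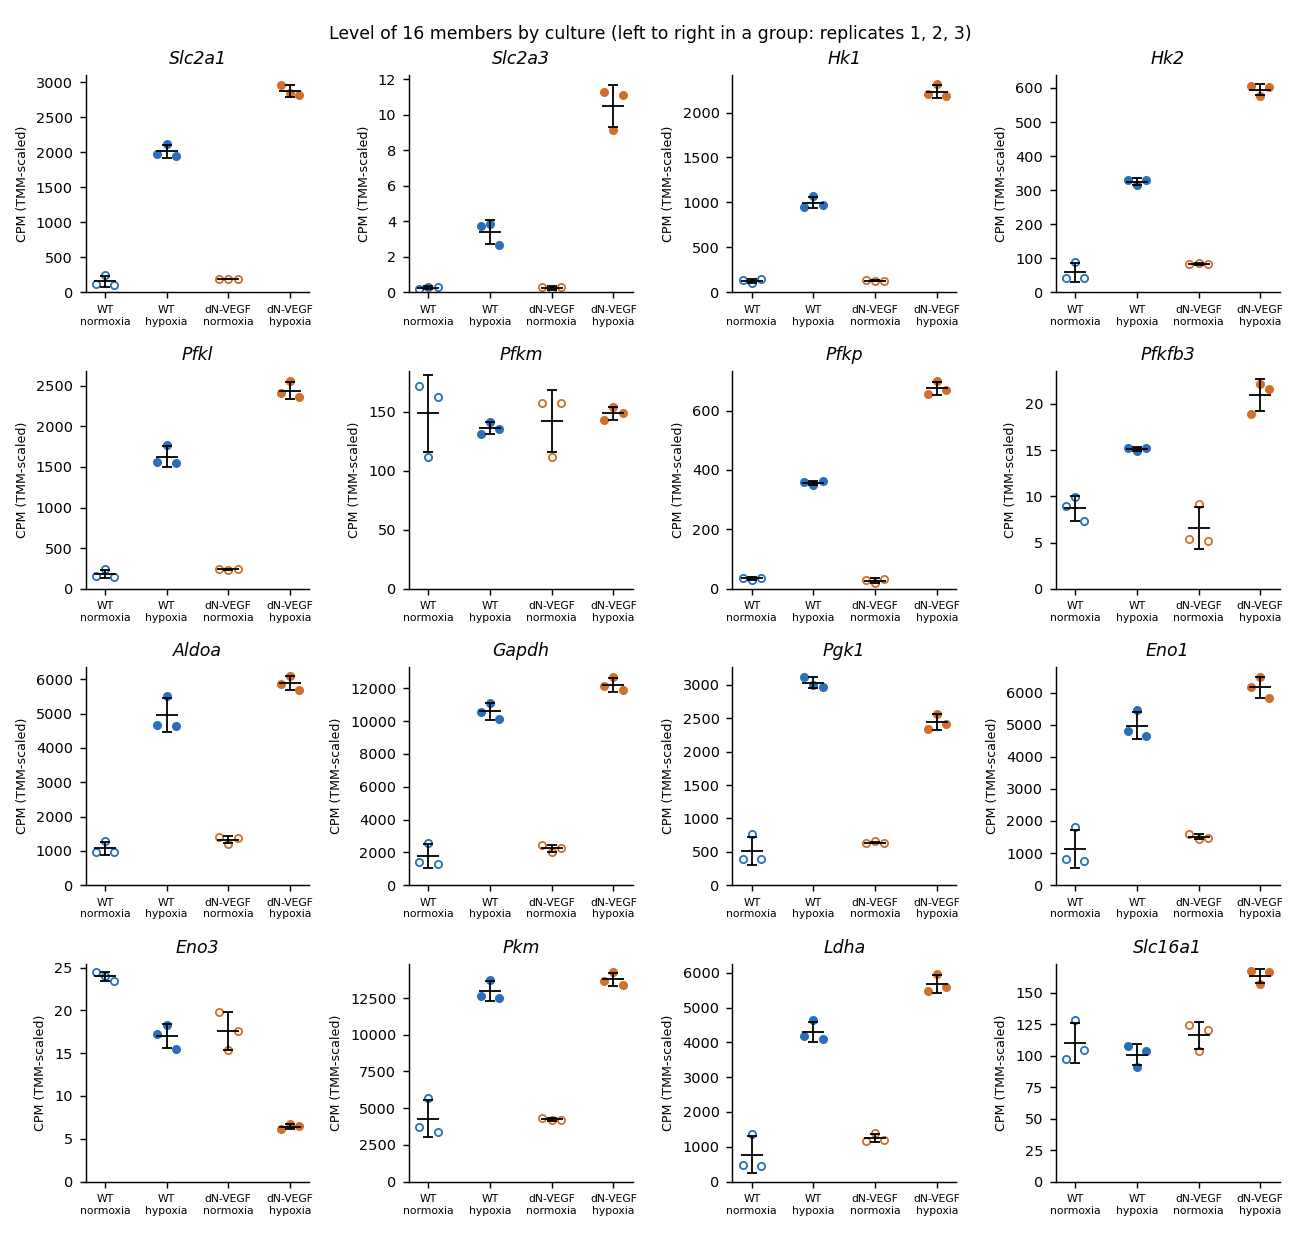
CPM (y axis, from 0) of 16 members in each sample, with open points for normoxia, filled points for hypoxia, blue for WT and orange for dN-VEGF cells. Black bars give the mean and SD of 3 samples, and the middle point of WT normoxia, replicate 2, is the high one for Slc2a1, Hk2, Pgk1, Eno1 and Ldha and the low one for Pfkm and Hk1.

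The isoforms of a family were compared by the log2 ratio of their CPM within each sample, into which the scaling of libraries enters only through the prior count of 2. The mean change of a ratio with hypoxia over both lines was tested by an exact two-sided permutation test within lines, which cannot go below p = 0.005, and 16 pairs were adjusted together. Of the 16 pairs 13 passed, 12 of them at the smallest p the test allows (adjusted exact permutation p = 0.00667). The first of each pair lost ground for Pfkm to Pfkl (mean change -3.29 on the log2 scale), Ldhb to Ldha (-3.36), Eno3 to Eno1 (-3.12), Bpgm to Pgam1 (-3.63), Adpgk to Hk1 (-3.36), Aldoc to Aldoa (-3.05), Pgam2 to Pgam1 (-2.10) and Slc2a4 to Slc2a1 (-2.05). Aldoc, which failed the filter on low counts, had 1 to 8 counts per hypoxia sample, so that the prior count and the rise of Aldoa largely set its ratio. Slc2a4 itself changed by 1.08 in WT and 2.36 in dN-VEGF cells, and lost ground because Slc2a1 rose more. Each of Pfkfb1, Pfkfb2 and Pfkfb4 lost ground to Pfkfb3 (-1.67, -1.23 and -1.49). Eno2 gained on Eno1 by 1.76, in WT by 1.52, or 0.51 without WT normoxia replicate 2. Without that sample the WT change of Slc2a4 to Slc2a1 went from -2.49 to -3.60. Hk2 fell behind Hk1 by 0.41 in WT and by 1.30 in dN-VEGF cells (mean -0.86, adjusted exact permutation p = 0.0492), and the call on this isoform log2 ratio Hk2/Hk1 did not hold without WT normoxia replicate 2 (-0.60, 0.105), when in WT the direction turned to a gain of 0.10 for Hk2, or without WT hypoxia replicate 2 (0.0571). Pfkp gained 0.16 and 1.28 on Pfkl (mean 0.72, adjusted exact permutation p = 0.0571), and it passed without WT normoxia replicate 1 or replicate 3. Without WT normoxia replicate 2 the change in WT turned to -0.17, so that a gain of Pfkp rested on the dN-VEGF cells. Neither Slc2a3 to Slc2a1 (mean 0.46, adjusted exact permutation p = 0.288) nor Slc16a3 to Slc16a1 (0.02, 0.940) passed, and for both the lines went in opposite directions, with -0.38 in WT and 1.29 in dN-VEGF cells for the former and 0.37 and -0.32 for the latter.

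**Figure D3:**
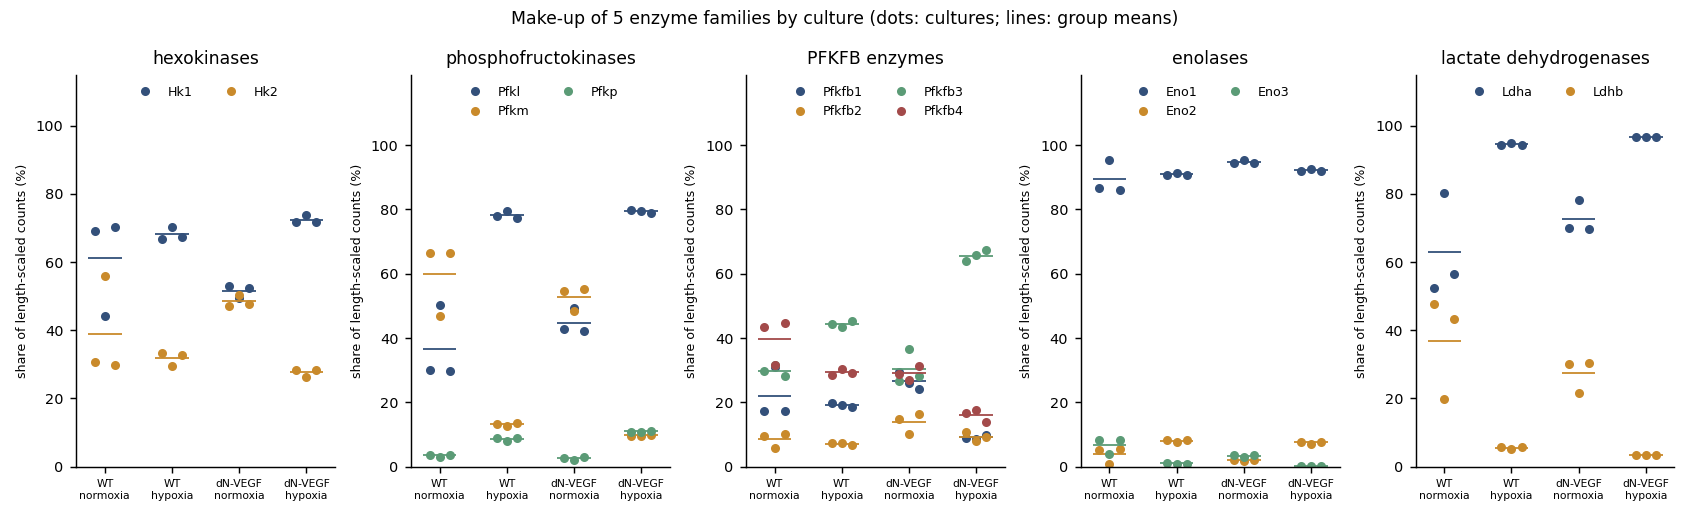
Share of the length-scaled counts of a family (y axis, percent) taken by each isoform in every sample, for hexokinases, phosphofructokinases, PFKFB enzymes, enolases and lactate dehydrogenases, with lines at group means. By group means Pfkm leads in normoxia and Pfkl in hypoxia, but Pfkl leads already in the normoxia samples numbered 2, and the normoxia order depends on the length used. Ldha reaches over 94% in hypoxia, and Pfkfb3 reaches 65.7% in dN-VEGF hypoxia.

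As shares of each family's level per kilobase of exon, the leading isoform by group means changed for phosphofructokinase in both lines and for the PFKFB enzymes in WT. Pfkm held 59.9% ± 11.3 (SD, n = 3) of the 3 isoforms in WT normoxia and 13.1% ± 0.407 in hypoxia, and 52.7% ± 3.69 and 9.68% ± 0.240 in dN-VEGF cells, while Pfkl went from 36.6% ± 11.7 to 78.3% ± 1.05 and from 44.8% ± 4.09 to 79.4% ± 0.433. In normoxia the lead of Pfkm depended on the length used and on the library: with principal transcripts in place of all exons it was 47.8% against 44.5% for Pfkl in WT and 40.9% against 53.6% in dN-VEGF cells, and in the normoxia samples numbered 2 Pfkl led in both lines, with 50.1% in WT and 49.5% in dN-VEGF cells. Ldha went from 63.0% ± 14.95 to 94.5% ± 0.292 in WT and from 72.6% ± 4.95 to 96.7% ± 0.03 in dN-VEGF cells. Pfkfb3 went from 29.8% ± 1.78 to 44.4% ± 1.05 and from 30.5% ± 5.38 to 65.7% ± 1.71. Pfkfb4 went from 39.8% ± 7.11 to 29.4% ± 0.862 in WT and from 29.1% ± 2.165 to 15.9% ± 1.94 in dN-VEGF cells. Its lead in WT normoxia was narrow in replicate 2, at 31.65% against 31.6% for Pfkfb3. Hk1 held 61.2% ± 14.8 and 68.2% ± 1.96 of the Hk1 and Hk2 level in WT normoxia and hypoxia, and 51.6% ± 1.78 and 72.4% ± 1.11 in dN-VEGF cells. The WT normoxia samples were at 69.2%, 44.1% and 70.2%, and without replicate 2 the mean of 69.7% was above that of hypoxia. Eno1 kept 86% or more in every sample, and Eno2 stood at 8.03% ± 0.28 and 7.51% ± 0.38 in hypoxia.

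The next comparisons asked how the lines differed in each condition. Each shares its samples with the comparisons of hypoxia, and all were fitted with the same estimate of the spread. In normoxia 0 of 32 members were higher and 2 were lower in dN-VEGF cells than in WT, where 1.39% of all genes were higher and 2.97% lower. Pfkfb4 was at 8.35, 6.43 and 7.47 CPM in WT and 3.75, 4.38 and 3.75 in dN-VEGF cells, with no overlap and a difference of -0.91 ± 0.15 (edgeR adjusted p = 0.0087, and 0.017 with replicate number as a block), but the call was lost in the fit on the 6 normoxia samples (0.22, and 0.2 with the block) and without dN-VEGF normoxia replicate 1 or 3 (0.054 and 0.052). Eno3 differed by -0.45 ± 0.11 (0.049), which did not hold with the block (0.063), was called in 5 of 21 alternatives and was lost when any of 11 of the 12 samples was left out. The spread of WT normoxia bears on this result. Without replicate 2 of WT normoxia 16 members were called, 12 higher and 4 lower, but so were 48.9% of all genes. The higher ones were then Slc2a1, Hk2, Gpi1, Pfkl, Aldoa, Tpi1, Gapdh, Pgk1, Pgam1, Eno1, Pkm and Ldha, and the lower ones Pfkp, Eno2, Pfkfb4 and Eno3.

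**Figure D4:**
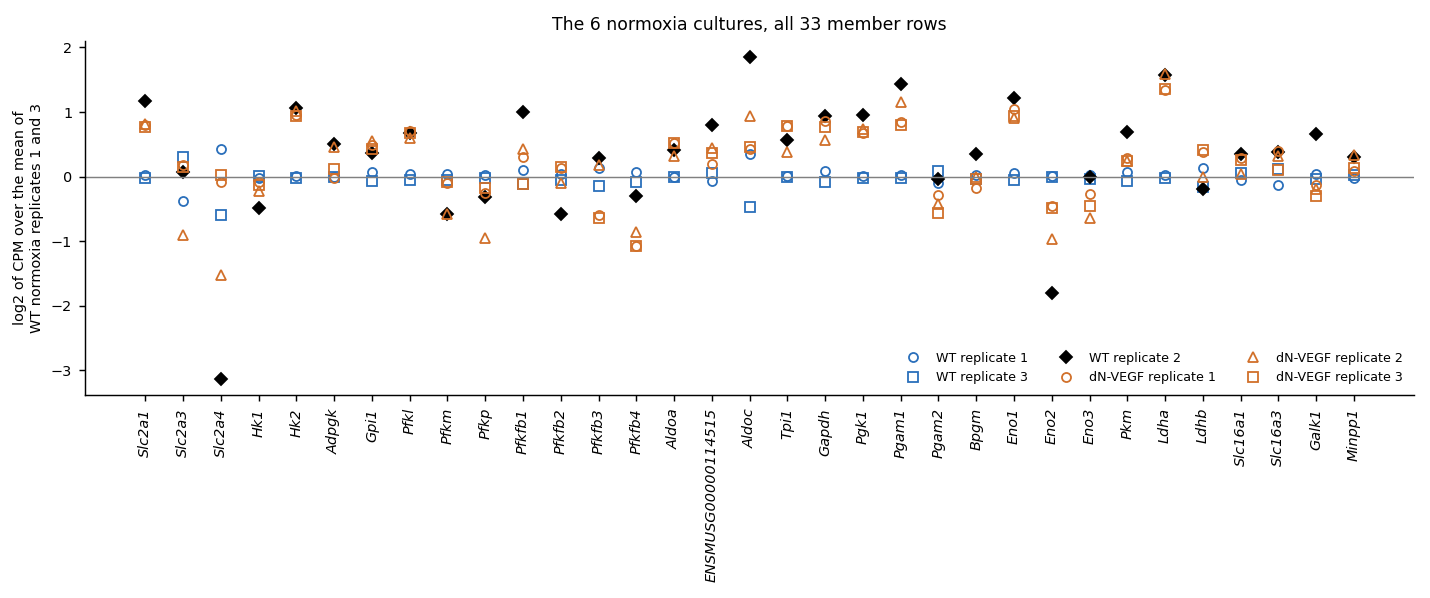
Log2 of the CPM of each normoxia sample over the mean of WT normoxia replicates 1 and 3 (y axis) for all 33 member rows (x axis), with WT replicates 1 and 3 as open blue points, WT replicate 2 as black diamonds and the 3 dN-VEGF samples as open orange points. WT replicate 2 lies near or beyond the dN-VEGF samples for Slc2a1, Hk2, Pfkl, Gapdh, Pgk1, Pgam1, Eno1 and Ldha, 1.57 above the zero line for Ldha, and 1.81 below it for Eno2.

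In hypoxia 7 members were higher and 4 lower in dN-VEGF cells, where 10.8% of all genes were higher and 9.36% lower. The higher ones were Slc2a3 (1.62 ± 0.23, edgeR adjusted p = 0.001), Hk1 (1.16 ± 0.13, 0.00024), Pfkp (0.92 ± 0.17, 0.0043), Hk2 (0.87 ± 0.23, 0.022), Slc16a1 (0.70 ± 0.12, 0.0028), Pfkl (0.58 ± 0.16, 0.027) and Gpi1 (0.41 ± 0.11, 0.024). In Slc2a3 the dN-VEGF samples were at 9.13 to 11.3 CPM and the WT samples at 2.65 to 3.87. The lower ones were the isoforms Eno3 (-1.40 ± 0.12, edgeR adjusted p = 4.8e-05), Pfkfb1 (-1.16 ± 0.28, 0.015), Pfkfb4 (-0.98 ± 0.15, 0.0017) and Pgam2 (-0.63 ± 0.17, 0.028). None of the abundant genes from Aldoa to Ldha passed, with differences between -0.31 ± 0.21 for Pgk1 and 0.40 ± 0.34 for Ldha. That count rests on the spread pooled over all groups. Fitted on the 6 hypoxia samples alone, 25 members passed, 18 higher and 7 lower, with 57.0% of all genes, and leaving WT normoxia replicate 2 out of the shared estimate gave 22 members with 42.4% of all genes. Slc2a3, Hk1, Pfkp, Slc16a1, Eno3 and Pfkfb4 kept an adjusted p under 0.05 in every alternative that tested them (Slc2a3 was not tested with at least 10 counts asked for in every sample), but of these only Hk1, Slc2a3 and Eno3 differed by 2-fold or more, whereas Hk2, Pfkl, Gpi1, Pgam2 and Pfkfb1 were lost when single hypoxia samples were left out.

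**Figure D5:**
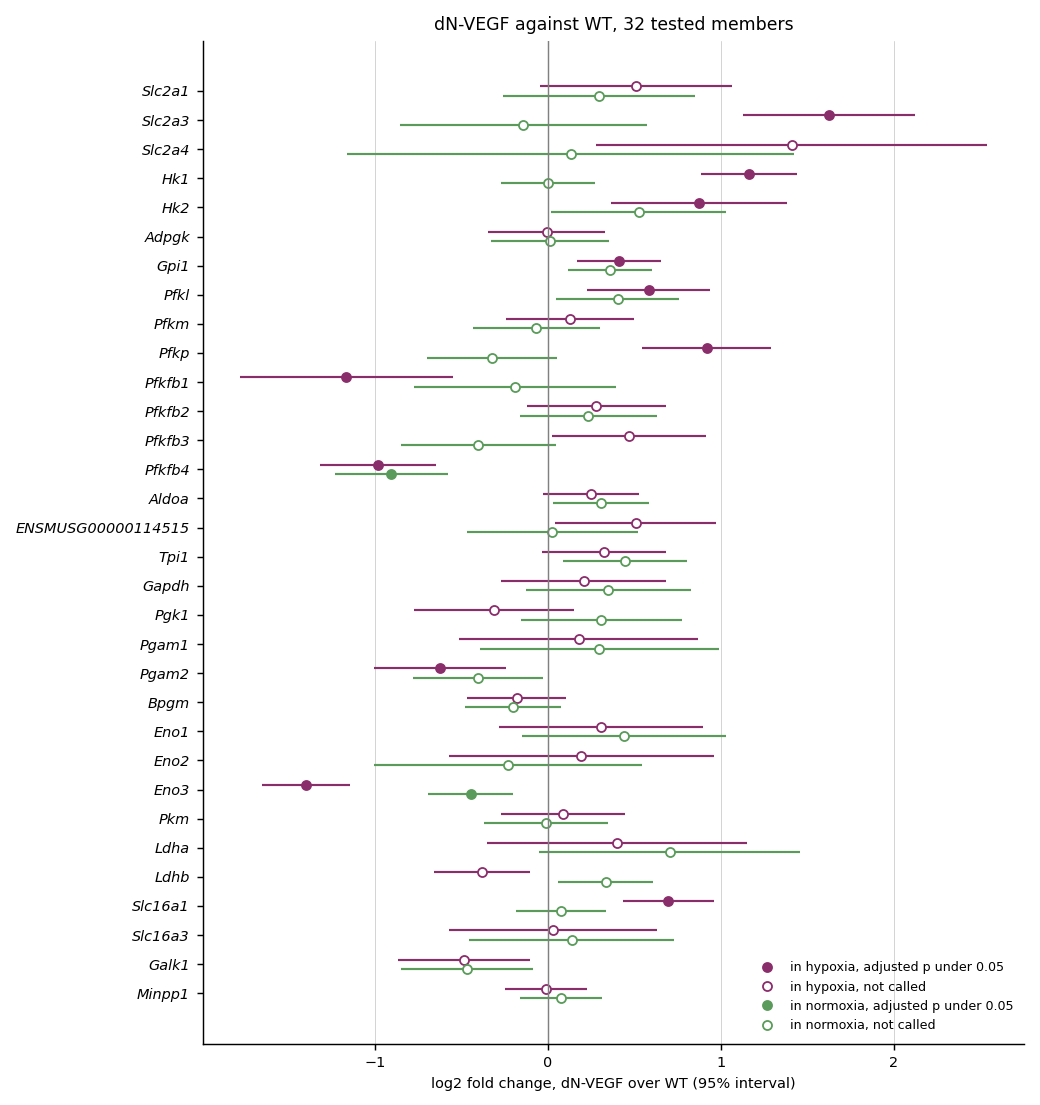
Log2 fold change of dN-VEGF over WT cells (x axis) for the 32 tested members (y axis), in hypoxia (purple) and in normoxia (green), with 95% intervals as lines and filled points where the edgeR adjusted p was under 0.05. Eno3 and Pfkfb4 are called below 0 in both conditions (Eno3 in normoxia in 5 of 21 alternatives), and the 7 members called above 0 are called in hypoxia.

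The difference of the hypoxia responses between the lines, the interaction, was called for 3 members with a larger response in dN-VEGF cells and 1 with a more negative one, where 2.21% and 1.15% of all genes were called. They were Slc2a3 (1.77 ± 0.40, edgeR adjusted p = 0.039), Pfkp (1.24 ± 0.24, 0.024), Hk1 (1.16 ± 0.18, 0.0089) and Eno3 (-0.95 ± 0.16, 0.013). Hk1 was called in all 19 alternatives and Eno3 in 16 of 19, but Pfkp in 9 of 19 and Slc2a3 in 7 of 18, the latter being lost with the replicate block (0.058). For Hk1 the lines were at the same level in normoxia (difference -0.00 ± 0.12) and 2.24-fold apart in hypoxia. Without WT normoxia replicate 2 the interaction was called for 16 members, 7 higher and 9 lower, with 44.4% of all genes, the 9 lower ones including Slc2a1, Gapdh, Pgk1, Pgam1, Eno1 and Ldha. With that sample in, the interactions of these 6 ranged from -0.62 ± 0.30 for Pgk1 to 0.21 ± 0.36 for Slc2a1, with adjusted p-values of 0.26 or more.

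Other genes of the pathway were counted from lists. Of 32 other isoforms, transporters and regulators 18 were tested, of which 4 rose and 3 fell in WT (median change -0.03; 18.2% and 18.3% of all genes), and 7 rose and 2 fell in dN-VEGF cells (0.25; 26.9% and 26.4% of all genes), shares near those of all genes in WT and not above them for the falls in dN-VEGF cells. Bsg, the chaperone that carries MCT1 and MCT4 to the cell surface, was at 483, 581 and 479 CPM in WT normoxia, 3506, 3731 and 3577 in WT hypoxia, 663, 689 and 641 in dN-VEGF normoxia and 6949, 7188 and 6996 in dN-VEGF hypoxia. In contrast to both transporters it rose strongly in each line, by 2.81 ± 0.10 and 3.41 ± 0.10, with an interaction of 0.60 ± 0.13 (adjusted p = 0.033). Emb, another chaperone of MCT1, fell by 1.496 on the log2 scale in WT (SE 0.26, from 35.1 to 84.1 CPM to between 23.1 and 24.2). In dN-VEGF cells its change was -0.62 ± 0.25 (edgeR adjusted p = 0.06), and the difference of 0.88 ± 0.36 did not pass (0.2). Tigar, a phosphatase of fructose 2,6-bisphosphate, fell by 1.39 (SE 0.32) and 1.86 (SE 0.33), and Pgp, which clears toxic side products of glycolysis, rose by 1.83 ± 0.44 and 2.03 ± 0.45. Hkdc1, a hexokinase relative, was called higher in both lines, from 0.0232 to 0.154 CPM in normoxia to between 0.274 and 0.382 in WT hypoxia and between 1.29 and 2.19 in dN-VEGF hypoxia, with too few counts in normoxia for a fold. It passed the filter on low counts only through its hypoxia samples, so that a rise was favored beforehand. In dN-VEGF cells Slc2a9 and Gapdhs, both under 2 CPM, also rose by 1.81 ± 0.44 and 2.75 ± 0.68, and Pgam5, a mitochondrial phosphatase, fell by 1.06 (SE 0.27). Gapdhs, too, would not have passed the filter on its normoxia samples alone.

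Pgm2, the phosphoglucomutase gene on chromosome 4 in this annotation, rose by 3.13 ± 0.10 and 3.03 ± 0.10, from 100.7 to 125 CPM over the normoxia samples of both lines to between 918 and 1038. All 8 genes of the pentose phosphate branch were tested, of which 1 rose and 2 fell in WT and 2 rose and 3 fell in dN-VEGF cells (median 0.17 and 0.00), against the same 18.2% and 18.3% and 26.9% and 26.4% of all genes. There Taldo1 fell by 1.502 (SE 0.31) and Rpia by 1.26 (SE 0.27). Of 7 gluconeogenic genes 3 were tested, and only Pck2, the mitochondrial form, rose in dN-VEGF cells (2.06 ± 0.39), where 26.9% of all genes rose. In WT 0 were called, where 18.2% of all genes rose and 18.3% fell (median of the list 0.26 in WT and 0.08 in dN-VEGF cells). These are too few genes to set the list apart from all genes. Of 14 near-identical copies of members 3 were tested, and all 3 rose in both lines, where 18.2% of all genes rose in WT and 26.9% in dN-VEGF cells. Eno1b rose by 2.30 ± 0.30 and 2.15 ± 0.30, and Gapdh-ps14 by 2.77 ± 0.31 and 2.89 ± 0.31. Pgam1-ps1 went from under 0.13 CPM to at most 0.411, too few counts for a fold, and it passed the filter on low counts only through its hypoxia samples. Reads of members with such copies may have been split or left out by the counting, so that the levels of Gapdh, Pgam1, Eno1, Pgk1, Aldoa and Ldha are uncertain to that extent. Whether the rise of the copies comes from reads of the members was not tested.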

How the data were processed

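RNA was measured in 12 samples by 80-bp single reads from TruSeq v2 libraries. Per the labels and the methods, the authors trimmed reads (cutadapt 1.10), aligned them with TopHat2 2.1.0 (Bowtie2 2.2.6) and counted them per gene with HTSeq 0.6.1. The deposited values are raw counts, whole numbers with no scaling, from 30519052 to 43056690 per sample. Whether strand was used in counting is not given in the sources used here, and the kit does not mark strand, so that reads of overlapping genes cannot be told apart (Minpp1 shares 23.82% of its exon length with another gene, Pfkfb2 17.4%, Pkm 15.34%, Gpi1 11.48% and Pfkm 10.21%, other members at most 5.58%). Groups came from the labels.

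Counts were fitted with edgeR 4.0.16 (R 4.3.3) over all 12 samples with 1 mean per group, TMM scaling and filterByExpr, which left 14724 genes. The quasi-likelihood F test gave 5 contrasts with Benjamini-Hochberg adjustment over all tested genes, and a call is an adjusted p under 0.05. Ratios used a prior count of 2. Isoform ratios were tested by an exact two-sided permutation test over 400 arrangements. Lengths were the union of exons of GENCODE M21 (GRCm38), and promoter sequences came from RefSeq (GRCm38.p6). The edgeR step was tested on simulated data for hypoxia in WT, where it recovered 97.5% of 200 genes changed 2-fold with 7 false calls among 14371 genes. Whether these rates hold for the measured samples, with WT normoxia replicate 2 apart from its group, was not tested. Leaving that replicate out moved the calls for hypoxia in WT from 5372 of 14724 genes to 8175 of 15145. Depth limits the scarce members: Slc2a3, Slc2a4, Pgam2, Slc16a3 and Aldoc had few counts per sample.

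All members are named, and other pathway genes are named when called with a fold of 2 or more in either hypoxia comparison; any other was chosen after its values were seen. The counts of the galactose branch and 1 gene of it are not reported here. The members and the lists were chosen with earlier results of these data known. Alternatives were DESeq2 1.42.0, other scalings and filters, fits on 6 samples, each sample left out in turn, both normoxia samples numbered 2 left out, and replicate number as a block. In normoxia same-numbered samples of the lines deviated together (r = 0.378, 0.498 and 0.355 for numbers 1, 2 and 3 across genes), and so did samples 1 and 3 across numbers (0.347 and 0.358), so that there the blocked value is printed where it changes a call. In the other comparisons not every pair correlated above 0.1 (-0.018 to 0.109), and the numbers were not taken to pair samples.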

Additional observations from a re-analysis of the deposited data

Results flagged for a closer look

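The hypoxia responses of 4 members differed between the lines by the test of the interaction. For Hk1 the response was 1.1638 larger in dN-VEGF cells on the log2 scale (edgeR adjusted p = 0.0089), and the difference was called in all 19 alternatives, between 1.0045 and 1.2947. That of Pfkp was 1.2418 larger (0.024) and was called in 9 of 19 alternatives, being lost when any of 9 of the 12 samples was left out and when libraries were scaled by total counts (adjusted p at most 0.081). The response of Slc2a3 was 1.7657 larger (0.039), called in 7 of 18 alternatives and lost when any of 10 of the 12 samples was left out and with the replicate block (adjusted p at most 0.12). Eno3 had a response of -0.9536 relative to WT (0.013), called in 16 of 19 alternatives and lost without WT hypoxia replicate 1 or dN-VEGF hypoxia replicate 1 or 3 (adjusted p at most 0.06). The direction was the same in all alternatives for these 4 genes.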

How the results depend on the processing

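The number of members called in hypoxia against normoxia ranged from 19 to 27 in WT (main 23) and from 23 to 27 in dN-VEGF cells (main 26) over all alternatives, the 19 in WT coming with 13.3% or 15.7% of all genes called and the 27 with 65.3% (main 36.5%), and in dN-VEGF cells the 23 with 27.2% and the 27 with 43.4% or 71.4% (main 53.3%), and from 23 to 25 and from 25 to 27 with single samples left out. Those fits without single samples called 26.8% to 54.0% of all genes in WT and 42.9% to 67.1% in dN-VEGF cells. The 19 in WT with 13.3% came from the blocked fit on the 6 WT samples, which lost the calls of Ldhb, Pfkfb3, Eno3 and Minpp1. For dN-VEGF against WT in normoxia (main 2) the number of members called was 0 with a fold of 2 or more, 1 with no filter, 1 with the replicate block, 0 with only the 6 samples, 0 with the block on those 6 samples (an alternative chosen after seeing the data) and 19 without both normoxia samples numbered 2 (with 53.6% of all genes), and from 0 to 16 with single samples left out (1.1% to 48.9% of all genes), the 16 being without WT normoxia replicate 2. For dN-VEGF against WT in hypoxia (main 11) it was 4 with a fold of 2 or more (6.81% of all genes), 25 with only the 6 samples (57.0%), 26 with the block on those (61.1%), 26 without both normoxia samples numbered 2 (55.8%) and from 6 to 22 with single samples left out (10.1% to 42.4%). For the interaction (main 4) it was 7 with DESeq2 (10.3% of all genes), 19 without both normoxia samples numbered 2 (52.8%) and from 1 to 16 with single samples left out (75 to 6729 of all genes called), again 16 without WT normoxia replicate 2. A direction turned for Pkm in dN-VEGF against WT in normoxia, from -0.01 to 0.27 without WT normoxia replicate 2 (edgeR adjusted p = 0.0086) and 0.28 without both samples numbered 2 (0.0023), ranging from -0.156 to 0.27 with single samples left out, and for Slc2a1 in the interaction, from 0.21 to -0.30 (0.014) and -0.29 (0.005), ranging from -0.30 to 0.4175. The cause was not tested. With the replicate block the counts were 23, 26, 1, 12 and 3 in the order of the comparisons above, with 38.6%, 55.5%, 4.37%, 22.0% and 3.29% of all genes called. The block lost Eno3 in normoxia and Slc2a3 in the interaction, added Galk1 in hypoxia, and changed no other call in that fit. Scaling by total counts alone moved the median of all genes from -0.07 to -0.30 in WT hypoxia, from -0.01 to -0.41 in dN-VEGF hypoxia, from -0.01 to -0.23 between lines in hypoxia and from 0.03 to -0.15 in the interaction, and with it 6 members were higher and 8 lower between lines in hypoxia, with 26.8% of all genes called (main 20.1%). Of the isoform ratios 12 to 14 of 16 were called under the alternatives, and that of Hk2 to Hk1 was also lost with the replicate block and without both normoxia samples numbered 2. Other length scalings, 1 of them chosen after seeing the data, moved 127 of 184 shares by over 1 SD.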
